A study of Homo sapiens with 6 samples.

Results

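Of 10 genes of the YAP and TEAD pathway, CCN2 alone was called different when LARP6 was overexpressed in MDA-MB-231 cells, and it rose 1.09-fold. The 10 genes are the rows of the deposited count table with the symbols CCN1, CCN2, ANKRD1, THBS1, AMOTL2, LATS2, AJUBA, YAP1, WWTR1 and TEAD1, out of 28675 genes in that table. They were chosen by name as known parts and targets of the pathway, with earlier results of these data known. MDA-MB-231 is a mesenchymal-like line from a breast cancer without estrogen receptor, progesterone receptor or HER2. The labels describe 3 libraries as no-load control and 3 as LARP6 overexpression, LARP6 being a La-related protein that binds RNA. The sources used here do not name the vector, its promoter, the time after its introduction or whether the cells were 1 clone or a pool. Separate cultures are not stated either, so each p-value measures the scatter among these 6 libraries, and that scatter may be technical.

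YAP (gene YAP1) and TAZ (gene WWTR1) are transcriptional coactivators that carry no DNA-binding domain and act on genes through the TEAD transcription factors. The Hippo kinases LATS1 and LATS2 phosphorylate both coactivators and keep them out of the nucleus, while stiff matrix, spreading and actin tension favour their nuclear entry. Targets include CCN1 and CCN2, which encode secreted matricellular proteins, and ANKRD1, a nuclear ankyrin-repeat protein gene. Some targets, LATS2, AMOTL2 and AJUBA among them, encode proteins that act back on the pathway. Nuclear entry and phosphorylation are protein events that RNA levels do not show, so target RNAs are the readout available here.

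The sequences in front of 3 target genes are shown because TEAD factors bind the letters GGAATG, or CATTCC on the other strand, and these genes are targets whose RNA is described further on. Each run gives the 250 bases before the RefSeq start (GRCh38.p14), read along the gene's own strand, with every match to the motif in capitals. CCN2 lies on the minus strand at chr6:131951373-131951622, ANKRD1 on the minus strand at chr10:90921088-90921337 and THBS1 on the plus strand at chr15:39580829-39581078.
CCN2: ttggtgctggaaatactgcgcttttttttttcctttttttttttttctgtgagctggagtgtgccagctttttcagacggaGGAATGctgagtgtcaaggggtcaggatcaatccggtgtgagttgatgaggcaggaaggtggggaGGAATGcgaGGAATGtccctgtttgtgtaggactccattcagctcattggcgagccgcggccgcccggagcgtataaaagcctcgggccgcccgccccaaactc
ANKRD1: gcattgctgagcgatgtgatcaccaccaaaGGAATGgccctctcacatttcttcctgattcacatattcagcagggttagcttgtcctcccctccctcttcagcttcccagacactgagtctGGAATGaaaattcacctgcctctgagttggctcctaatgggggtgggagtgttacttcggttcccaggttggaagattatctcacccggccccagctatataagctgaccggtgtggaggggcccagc
THBS1: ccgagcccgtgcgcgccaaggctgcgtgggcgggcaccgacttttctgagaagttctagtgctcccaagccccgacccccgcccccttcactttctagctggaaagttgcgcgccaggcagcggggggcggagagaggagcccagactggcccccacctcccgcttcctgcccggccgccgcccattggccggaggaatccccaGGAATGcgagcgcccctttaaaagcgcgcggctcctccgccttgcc
CCN2 held 3 matches, whose first bases lay 169, 104 and 95 bases before the start. ANKRD1 held 2, at 220 and 128 bases before the start, and THBS1 held 1, at 46 bases. Over 35116 RefSeq promoter windows of this length, 11.9% held at least 1 match, 0.940% at least 2 and 0.0826% (29 windows) at least 3. The promoter set used here held 11 windows for 8 of the 10 genes, AJUBA, AMOTL2 and WWTR1 having 2 starts each. It lacked CCN1 and TEAD1, which were thus not searched for either motif. Of the 11 windows, 6 held a match. The YAP1 window and 1 of the 2 windows of both AJUBA and AMOTL2 held 1 match, and the LATS2 window and both WWTR1 windows held 0. The CArG box, the serum response factor motif, had no match in the windows of the 8 genes, against 1.16% of all windows. A match describes the letters only and does not show that a factor is bound.

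LARP6 itself stood at 44.2, 40.7 and 43.3 CPM in controls and at 1995, 2198 and 2131 CPM with overexpression, so every library matched its label. CPM is the read count scaled to library depth, here with TMM factors, and total counts ran from 29409101 to 33387050 per library. The 4 markers of the line were present, and their sum was 4691 to 4783 CPM in controls and 4884 to 4985 CPM with LARP6. VIM, the mesenchymal filament gene vimentin, made up most of this sum at 3112 to 3397 CPM and was called higher (log2 0.09 ± 0.02, SE, edgeR adjusted p = 0.0166). The other line markers, CD44, EGFR and AXL, were not called. CD44 was lower in every LARP6 library (log2 -0.07 ± 0.03, SE, edgeR adjusted p = 0.0672). EGFR and AXL overlapped between groups (edgeR adjusted p = 0.403 and 0.679). ESR1 had 1 count and PGR 26 over the 6 libraries. KRT18, taken as low for this line in the marker list, went against that list at 719 to 755 CPM, and ERBB2, also on it, was at 54.2 to 59.3 CPM. Markers of other cell types were low in both groups. The 3 leukocyte markers in the count table summed to 4.04 to 4.94 CPM in controls and 4.42 to 4.96 CPM in LARP6 libraries, the 2 endothelial ones to 4.95 to 7.28 and 5.59 to 6.31 CPM, and the 5 fibroblast ones to 4.30 to 5.42 and 4.40 to 5.77 CPM. The 4 luminal breast markers, mostly GATA3, summed to 10.9 to 12.4 CPM in controls and 10.3 to 10.7 CPM with LARP6, without overlap. CDH5, the other endothelial marker, was not listed in the count table. The part of these markers in the results was not tested. Across all 16226 genes tested, edgeR called 395 higher and 584 lower in LARP6 libraries (687 and 303 when scaled by library size only).

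Per length, the targets ANKRD1 and CCN1 were far more abundant than the coactivator and TEAD1 transcripts. By the authors' FPKM over all 6 libraries, ANKRD1 was highest at 324 ± 10.1 (SD, n = 6), the 97th of 28339 genes by mean FPKM. CCN1 followed at 122 ± 2.99 FPKM, CCN2 at 40.4 ± 2.43, AJUBA at 25.5 ± 0.760, THBS1 at 22.1 ± 1.29 and YAP1 at 16.1 ± 0.340 FPKM. Below these came AMOTL2 at 7.99 ± 0.187, WWTR1 at 7.25 ± 0.395, TEAD1 at 6.54 ± 0.355 and LATS2 at 3.05 ± 0.108 FPKM. ANKRD1 was thus 106-fold above LATS2 per length. Neighbours in this order did not overlap over the 6 libraries, except WWTR1 (6.79 to 7.69 FPKM) and TEAD1 (6.06 to 6.90 FPKM).

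CCN2, formerly CTGF, was the member called, and the other secreted or nuclear targets were not. CCN2 (ENSG00000118523.6, chromosome 6, 131948176 to 131951373, minus strand, GRCh38 in GENCODE v29) had 97.8, 105 and 105 CPM in control libraries 1, 2 and 3 and 112, 113 and 109 CPM in LARP6 libraries 1, 2 and 3. All LARP6 libraries lay above all controls, and control library 1 was the lowest. The log2 fold change was 0.12 ± 0.03 (SE, edgeR adjusted p = 0.0201), a rise of 8.68% with a 95% interval of 3.62% to 14.0%. In bulk RNA, more cells with a transcript and more of it per cell cannot be told apart. Among the 10 members 1 was called (1 higher, 0 lower), against 6.03% of all genes tested, 2.43% as higher and 3.60% as lower. At an unadjusted p below 0.05, 4 members were higher and 0 lower, against 8.75% and 10.3% of all genes tested. DESeq2 called 1 member higher, CCN2 close to the threshold (adjusted p = 0.0469), and 0 lower, against 1.30% and 2.47% of all genes. A count of 1 in 10 is near that background share and is not a result about the pathway.

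CCN1, formerly CYR61, encodes the close relative of CCN2 and is often read out beside it. CCN1 (ENSG00000142871.18, chromosome 1, 85580761 to 85583962, plus strand) had 502, 508 and 532 CPM in controls and 497, 500 and 521 CPM in LARP6 libraries. The groups overlapped (log2 fold change -0.02 ± 0.03, SE, edgeR adjusted p = 0.704), with a 95% interval of -5.06% to 2.07%. The count ratio of CCN2 to CCN1, which no scaling of libraries can move, was 0.195, 0.206 and 0.197 in controls and 0.226, 0.226 and 0.210 in LARP6 libraries. Every LARP6 library had the higher ratio, by 0.14 on the log2 scale (exact permutation test, two-sided p = 0.1, the smallest that 3 against 3 libraries allow, and 0.15 adjusted over 6 ratios). The 6 ratios were chosen after the values were seen, so their tests add no support to the differences of single genes.

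ANKRD1, the most abundant member, showed no detectable difference. ANKRD1 (ENSG00000148677.7, chromosome 10, 90912096 to 90921276, minus strand) had 668, 657 and 629 CPM in controls and 673, 667 and 644 CPM in LARP6 libraries. These overlap, and the difference (log2 0.02 ± 0.03, SE, edgeR adjusted p = 0.703) had a 95% interval of -1.98% to 5.23%. Each library held 19378 to 20636 reads of ANKRD1. The ratio of CCN2 to ANKRD1 overlapped between groups (exact permutation test, two-sided p = 0.2, adjusted 0.2 over the 6 ratios).

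THBS1 encodes thrombospondin 1, a large matrix glycoprotein that binds cell-surface receptors and activates latent TGF-beta. THBS1 (ENSG00000137801.11, chromosome 15, 39581079 to 39599466, plus strand) had 210, 224 and 236 CPM in controls and 226, 233 and 247 CPM in LARP6 libraries. The groups overlapped, since control library 3 exceeded LARP6 libraries 1 and 2. The log2 fold change was 0.07 ± 0.03 (SE, edgeR adjusted p = 0.209), with a 95% interval of 0.430% to 10.3%. Single libraries weighed on it: the log2 value was 0.03 with control library 1 left out, 0.04 with LARP6 library 3 left out and 0.12 with control library 3 left out (edgeR adjusted p = 0.00767). With library number as a replicate block THBS1 stood at 0.07 and was called (edgeR adjusted p = 0.0384).

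**Figure D1:**
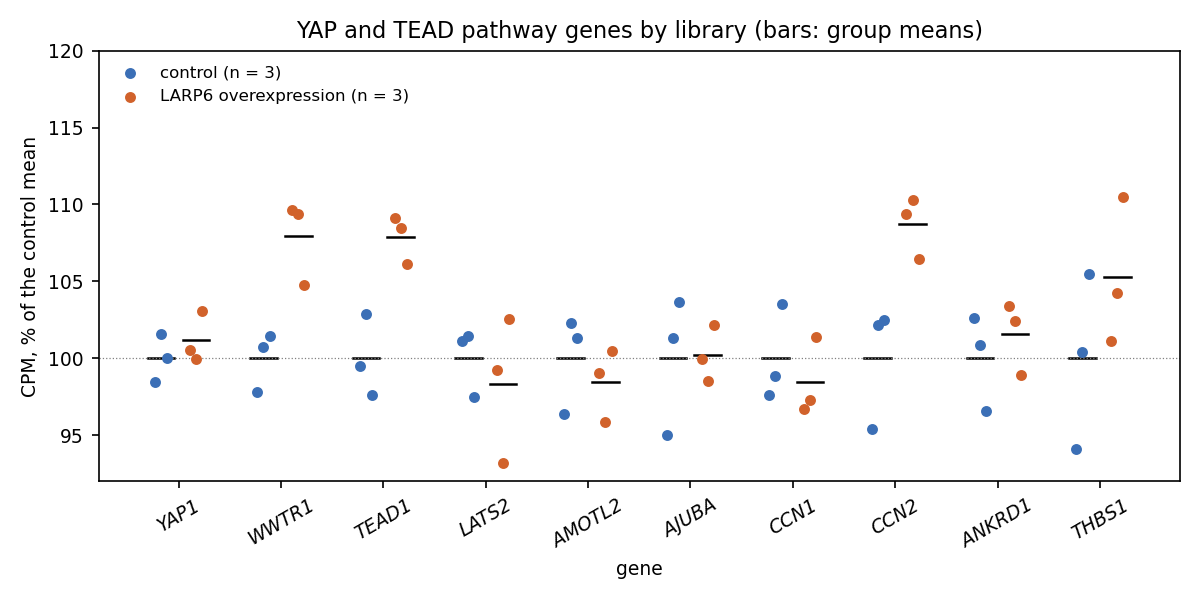
CPM of each of the 10 genes in each library, as a percentage of that gene's control mean (vertical axis), for 3 control and 3 LARP6 libraries, with bars at the group means. In CCN2, TEAD1 and WWTR1 the LARP6 points lie above all control points, and in the other 7 genes the groups overlap.

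The 2 coactivators differed in their values, with WWTR1 higher in every LARP6 library and YAP1 overlapping, and neither was called. WWTR1 (ENSG00000018408.15, chromosome 3, 149517235 to 149736714, minus strand) had 64.5, 66.5 and 67.0 CPM in controls and 72.4, 72.2 and 69.1 CPM in LARP6 libraries. The groups did not overlap, and the log2 fold change of 0.11 ± 0.04 (SE) missed the threshold (edgeR adjusted p = 0.0848), with a 95% interval of 2.12% to 14.0%. YAP1 (ENSG00000137693.14, chromosome 11, 102110461 to 102233423, plus strand) had 113, 116 and 114 CPM in controls and 115, 114 and 118 CPM in LARP6 libraries. These overlapped, at 0.02 ± 0.03 (log2, SE, edgeR adjusted p = 0.843) and a 95% interval of -3.36% to 5.97%. The WWTR1 to YAP1 count ratio was 0.573, 0.573 and 0.586 in controls and 0.630, 0.632 and 0.587 in LARP6 libraries. LARP6 library 3 was thus close to control library 3, and the exact permutation test gave a two-sided p = 0.1, the smallest possible here (0.15 adjusted over the 6 ratios). This ratio was also chosen after the values were seen, so its test adds no support either. Per length YAP1 made up 69.6% ± 0.260 of the summed FPKM of both coactivators (SD, n = 3) in controls and 68.2% ± 0.900 (SD, n = 3) with LARP6.

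TEAD1 is the DNA-binding partner among the members. TEAD1 (ENSG00000187079.20, chromosome 11, 12674591 to 12944483, plus strand) had 75.9, 78.5 and 74.5 CPM in controls and 83.2, 82.8 and 81.0 CPM in LARP6 libraries. All LARP6 libraries were above all controls (log2 0.11 ± 0.04, SE, edgeR adjusted p = 0.0651), with a 95% interval of 2.43% to 13.7%. Its paralog TEAD2 had the opposite sign, with 34.4, 37.3 and 34.8 CPM in controls and 31.2, 31.5 and 33.0 CPM in LARP6 libraries. These groups did not overlap either, and TEAD2 was not called (log2 -0.15 ± 0.05, SE, edgeR adjusted p = 0.0702). TEAD3 stood at 57.2 ± 2.43 and 53.7 ± 2.02 CPM (SD, n = 3 each, edgeR adjusted p = 0.219). TEAD4 was not called either (log2 -0.05 ± 0.07, SE, edgeR adjusted p = 0.724).

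Within a library, TEAD1 was higher relative to TEAD2 and TEAD3 in every LARP6 library, and relative to TEAD4 the groups overlapped. These ratios too were chosen after the values were seen. The TEAD1 to TEAD2 count ratio was 2.21, 2.11 and 2.14 in controls and 2.67, 2.63 and 2.45 in LARP6 libraries, higher by 0.26 on the log2 scale (exact permutation test, two-sided p = 0.1, adjusted 0.15 over the 6 ratios). With TEAD1 above and TEAD2 below all controls in CPM, this ratio had to separate, so its test adds no support. The ratio to TEAD3 was higher by 0.20 with the same p and adjusted p. The TEAD1 to TEAD4 ratio was 3.15, 3.13 and 3.66 in controls and 3.80, 3.90 and 3.41 with LARP6 (exact permutation test, two-sided p = 0.2, adjusted 0.2). TEAD1 has 41.3% GC and TEAD2 58.4%, and with the GC and length offsets described further on their log2 fold changes were 0.04 and -0.10, closer together than the 0.11 and -0.15 without them. Per length TEAD1 took 14.9% ± 0.145 of the summed FPKM of TEAD1 to TEAD4 (SD, n = 3) in controls and 16.8% ± 0.643 (SD, n = 3) with LARP6. The sum itself was 42.0 ± 0.798 FPKM in controls and 40.7 ± 1.10 FPKM in LARP6 libraries, and these values overlapped. The share of TEAD1 was higher in every LARP6 library, and this share was not tested.

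**Figure D2:**
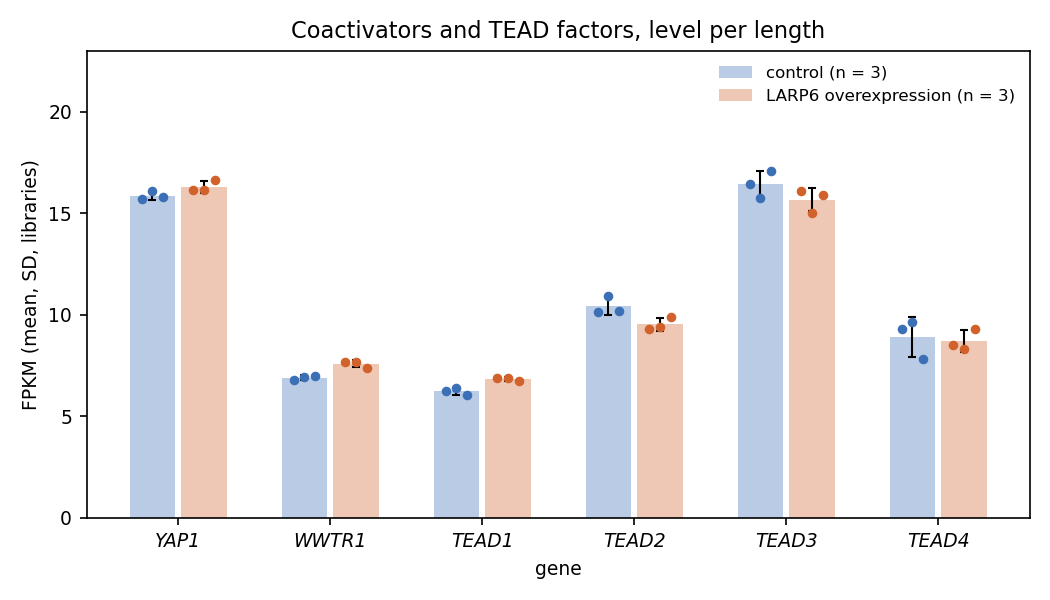
Authors' FPKM (vertical axis) of the coactivator genes YAP1 and WWTR1 and of TEAD1 to TEAD4 in 3 control and 3 LARP6 libraries, with bars at the mean, error bars of 1 SD and a point per library. TEAD3 and YAP1 are the most abundant, and the group means of TEAD1 and TEAD2 differ in opposite directions by less than 1 FPKM.

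None of the 3 members that act back on the pathway was called. LATS2 is the kinase that phosphorylates YAP and TAZ, AMOTL2 is an angiomotin that binds and retains YAP at junctions, and AJUBA is a LIM protein that binds LATS kinases and hinders them. LATS2 (ENSG00000150457.9, chromosome 13, 20973032 to 21061547, minus strand) had 19.8, 19.9 and 19.1 CPM in controls and 19.4, 18.2 and 20.1 CPM in LARP6 libraries (log2 -0.02 ± 0.07, SE, edgeR adjusted p = 0.900). It had the fewest reads of the members, 555 to 637 a library, and its 95% interval ran from -10.5% to 8.22%. AMOTL2 (ENSG00000114019.15, chromosome 3, 134355874 to 134375479, minus strand) had 57.0, 60.5 and 59.9 CPM in controls and 58.6, 56.7 and 59.4 CPM in LARP6 libraries (log2 -0.02 ± 0.04, SE, edgeR adjusted p = 0.837). AJUBA (ENSG00000129474.16, chromosome 14, 22971174 to 22982642, minus strand) had 162, 173 and 176 CPM in controls and 170, 168 and 174 CPM in LARP6 libraries (log2 0.00 ± 0.03, SE, edgeR adjusted p = 0.973). The groups overlapped in all 3 of these genes. The interval of AMOTL2 was -7.13% to 4.39% and that of AJUBA -3.97% to 4.54%.

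Over the members, 7 log2 fold changes were positive and 3 negative, with a median of 0.02 against 0.00 over all genes tested. The groups did not overlap in 3 of 10 members, all higher, against 22.3% of all genes tested, 10.6% as higher. Base composition moved with the fold changes of all genes. Genes were put into 5 bins of near-equal size by the GC content of their longest transcript. The median log2 fold change was 0.06 in the lowest bin (up to 41.1% GC) and 0.03 in the next (up to 45.9%). It was 0.00 in the middle bin (up to 51.6%), -0.03 in the bin above that (up to 58.1%) and -0.06 in the highest. WWTR1 (40.9% GC) lay in the lowest bin and TEAD1 (41.3%), THBS1 (45.6%), YAP1 (43.5%) and ANKRD1 (43.3%) in the next, the last pair at log2 0.02 each, while CCN2 (51.5%) and CCN1 (50.3%) lay in the middle one. AJUBA (52.8%), LATS2 (51.8%) and AMOTL2 (56.7%) lay in the bin below the highest. TEAD2 and TEAD3, with 58.4% and 59.8% GC, lay in the highest.

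With GC and length offsets, which take out each library's smooth trend on transcript GC and length, CCN2 stood at 0.14 (log2) and kept its call (edgeR adjusted p = 0.00321). With the same offsets TEAD1 stood at 0.04 (edgeR adjusted p = 0.685), WWTR1 at 0.05 (edgeR adjusted p = 0.626) and THBS1 at 0.03 (edgeR adjusted p = 0.890). Their higher values in LARP6 libraries were thus smaller once the trend was taken out, and that of CCN2 was not. CCN2 lost its call when control library 1 was left out (log2 0.09, edgeR adjusted p = 0.182). The same held for LARP6 library 1 (log2 0.12, edgeR adjusted p = 0.0969), for LARP6 library 2 (log2 0.11, edgeR adjusted p = 0.124) and on FPKM with limma (adjusted p = 0.0835 to 0.290). Scaled by library size only, which raises the median of all genes to 0.03, CCN2, TEAD1, WWTR1 and THBS1 were all called higher, beside 4.23% of all genes tested.

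**Figure D3:**
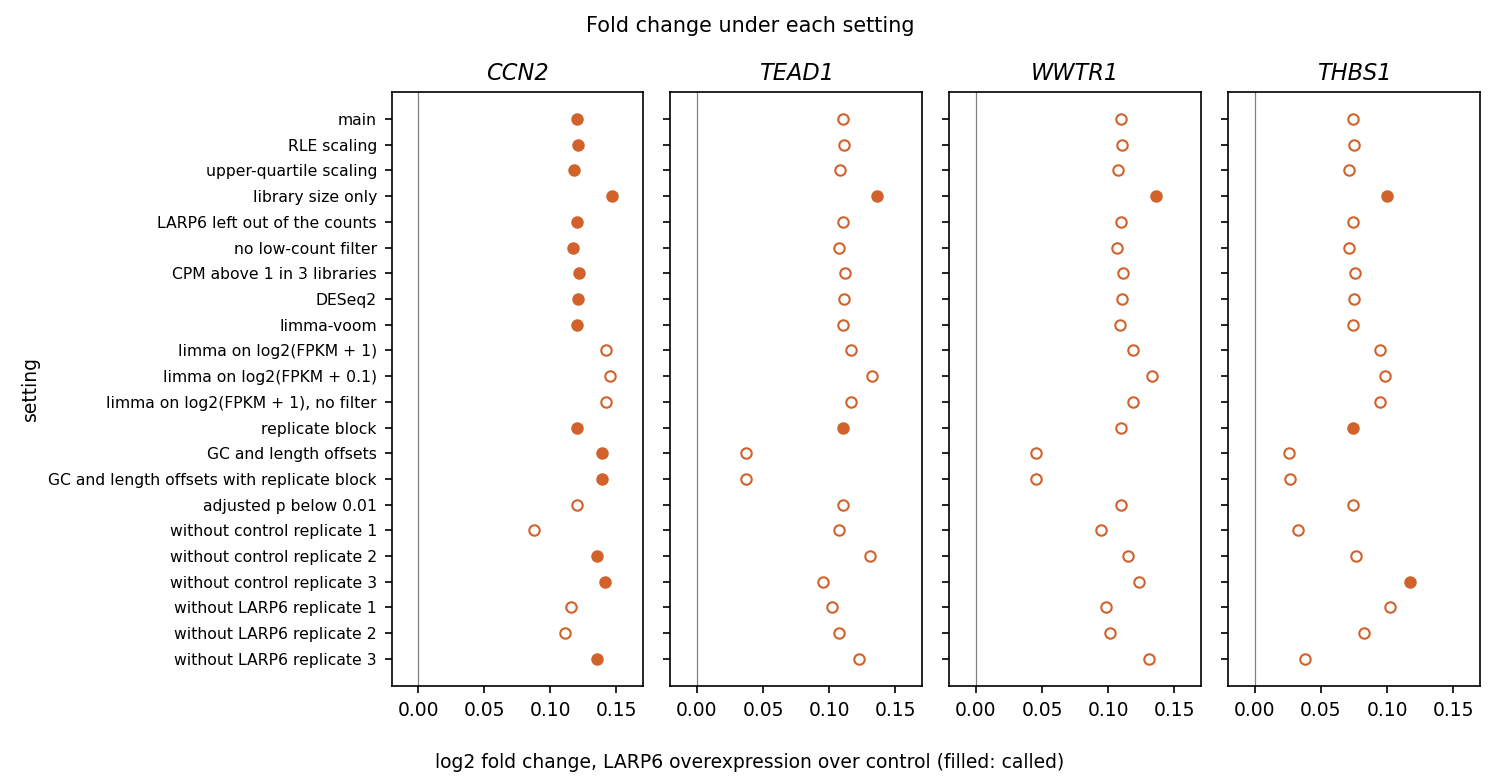
Log2 fold change (horizontal axis) of CCN2, TEAD1, WWTR1 and THBS1 under the main setting and 21 others (rows), with filled points where the gene was called. CCN2 is positive throughout, from 0.09 to 0.15, and TEAD1, WWTR1 and THBS1 are closest to 0 with GC and length offsets or, for THBS1, without single libraries.

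Among 22 tested Hippo regulators outside the members, 3 were higher, 1 lower and 18 not called, beside 2.43% higher and 3.60% lower over all genes tested. WWC1 (KIBRA), a scaffold that activates the LATS kinases, fell by 0.23 on the log2 scale (SE 0.04, edgeR adjusted p = 1.89e-05). It had 74.4, 74.9 and 72.3 CPM in controls and 63.2, 61.3 and 64.9 CPM in LARP6 libraries, with no overlap. WWC1 passed with GC and length offsets and without each library in turn, and missed the threshold on FPKM. FAT4, a giant cadherin, rose by 0.35 ± 0.09 (log2, SE, edgeR adjusted p = 0.0103) from 9.02 ± 0.432 to 11.5 ± 1.03 CPM (SD, n = 3 each). FRMD6, a FERM-domain protein of the pathway, rose by 0.14 ± 0.04 (SE, edgeR adjusted p = 0.0143) and LIMD1, the relative of AJUBA, by 0.12 ± 0.04 (SE, edgeR adjusted p = 0.0375). With GC and length offsets FAT4, FRMD6 and LIMD1 lost their calls (edgeR adjusted p = 0.0970, 0.403 and 0.326). Of the 6 fits with 1 library left out, FAT4 was called in 4, FRMD6 in 2 and LIMD1 in 1. LIMD1 also missed the threshold with DESeq2 (adjusted p = 0.0559). With those offsets the 49 tested pathway genes outside the members went from 3 called higher and 1 lower to 0 higher and 4 lower, the 4 being WWC1, the kinase gene MAP4K4 and the targets FSTL1 and TGFB2, the last 3 named after their values were seen. Over all genes tested the offsets left 1.16% higher and 2.47% lower. Without offsets, the median log2 fold change of the 22 regulators was 0.05, against 0.00 over all genes tested.

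Of 23 further YAP and TEAD targets, all tested, 0 were called by edgeR without offsets, beside 6.03% of all genes tested. DESeq2 called 1 higher, MYOF, and 0 lower, beside 1.30% and 2.47% of all genes. At an unadjusted p below 0.05, 4 were higher and 4 lower, beside 8.75% and 10.3% of all genes tested, and the median was 0.01 (log2). DOCK5, a Rac activator gene, had 42.5, 42.8 and 42.1 CPM in controls and 46.7 ± 1.10 CPM (SD, n = 3) in LARP6 libraries (edgeR adjusted p = 0.0668). MYOF, which encodes the membrane-repair protein myoferlin, had 387 ± 3.85 and 408 ± 4.06 CPM (SD, n = 3 each, edgeR adjusted p = 0.0686). The receptor kinase gene AXL, named after its values were seen, stood at a log2 value of 0.02 ± 0.03 (SE, edgeR adjusted p = 0.679). Of the other TEAD and VGLL factors, 5 were tested and 0 called by edgeR or DESeq2. At an unadjusted p below 0.05, 2 were lower (TEAD2 and TEAD3), beside 10.3% of all genes tested.

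**Figure D4:**
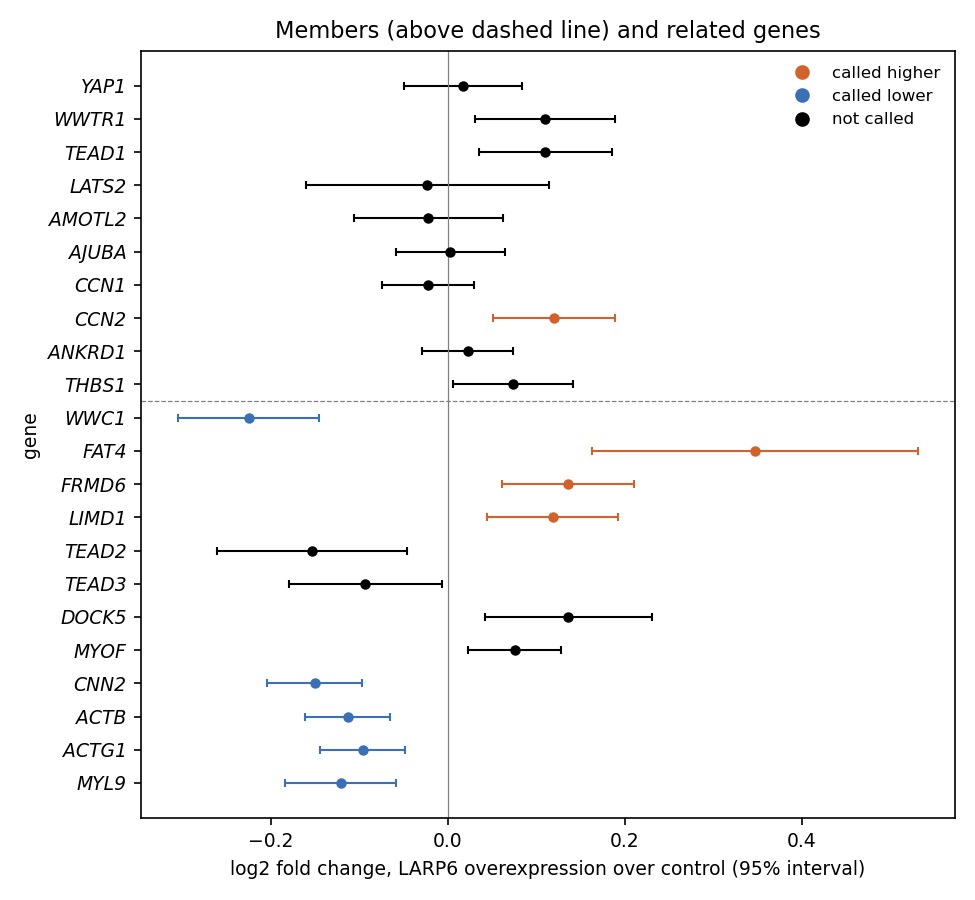
Log2 fold change of LARP6 over control libraries (horizontal axis) with 95% intervals for the 10 members, above the dashed line, and 12 related genes below it, coloured by call. Intervals of CCN2, TEAD1, WWTR1 and THBS1 lie above 0, of which CCN2 alone is called after adjustment over all genes. The actin-related genes at the bottom are called lower and were picked as those of smallest p in the list described next. FOSL1, called higher in that list, is not shown.

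CCN1, CCN2, ANKRD1 and THBS1 are also known targets of serum response factor (SRF) with its actin-regulated MRTF coactivators, so other genes of that system were counted. Of 18 tested, 1 was higher and 5 lower, with a median of -0.05 (log2), beside 2.43% higher and 3.60% lower over all genes tested. Scaled by library size only, 2 were higher and 3 lower, beside 4.23% and 1.87% of all genes. The actin-binding protein gene CNN2 fell from 354 ± 8.89 to 319 ± 5.08 CPM (SD, n = 3 each, edgeR adjusted p = 2.50e-05). ACTB, cytoplasmic beta-actin, fell from 7353 ± 73.6 to 6799 ± 16.2 CPM (SD, n = 3 each, edgeR adjusted p = 0.000673). ACTG1, gamma-actin, fell by 0.10 (log2, SE 0.02) and MYL9, a myosin light chain gene, by 0.12 (SE 0.03). ZYX was also lower and FOSL1 was the gene called higher, both named after their values were seen. With GC and length offsets 1 was higher and 2 lower (FOSL1, ACTB and CNN2), and the 6 calls became 3 when LARP6 library 1 was left out and 2 when LARP6 library 2 was.

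Among paralogs of the members, 12 were tested and LIMD1 was the 1 called, beside 6.03% of all genes tested. CCN3, named after its values were seen, had 37.6, 37.7 and 35.3 CPM in controls and 40.2, 41.2 and 40.3 CPM in LARP6 libraries (log2 0.14 ± 0.05, SE, edgeR adjusted p = 0.0821). CCN4, CCN6, THBS4, AMOT and ANKRD2 were listed with too few counts to test. The genes whose profile over the 6 libraries was most like that of CCN2, by the root mean square difference of centred log2 CPM among 10576 protein-coding genes, were FNIP2 (0.0139), RASSF3 (0.0144) and OSBPL3 (0.0150). For CCN1 they were PFDN6 (0.00522), TUBA1B (0.00760) and PTDSS1 (0.00830), and for THBS1 CPA4 (0.0101), LIMS2 (0.0102) and RBM12 (0.0158). These are descriptions over 6 libraries.

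Other genes overlap some members, and because the counter's strand setting is not stated, sense and antisense reads cannot be told apart. The antisense gene WWTR1-AS1 had 12 to 23 counts a library, 0.773% of the counts of WWTR1, and THBS1-AS1 had 5 to 8, 0.0920% of those of THBS1. The sense-overlapping WWTR1-IT1 had 0 to 4 counts and THBS1-IT1 44 to 76, 0.840% of those of THBS1. RPL39P5, a ribosomal protein pseudogene that overlaps AMOTL2 on the same strand, had 233 to 324 counts, 15.8% of those of AMOTL2, so the split of reads there is uncertain. The remaining overlapping genes in the count table had at most 0.992% of their member's counts.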

How the data were processed

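RNA from MDA-MB-231 cells was made into stranded mRNA libraries and read from both ends for 150 bases, per the protocols in the labels. The authors deposited read counts per gene and FPKM values per gene, 1 column a library, and all of these columns were used. The submitters' processing notes name HISAT2, DESeq2 and GRCh38 with no tool version. The read counter and the annotation are not stated in the sources used here.

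Counts were tested with edgeR 4.0.16 in R 4.3.3, with its expression filter, TMM scaling and the robust quasi-likelihood test without covariates, over 16226 genes with Benjamini-Hochberg adjustment and calls at an adjusted p below 0.05. The biological coefficient of variation from the common dispersion was 3.23%. Standard errors and 95% intervals come from this fit. Libraries held 29409101 to 33387050 counts. GENCODE v29 (GRCh38), which held 97.0% of the gene identifiers, gave coordinates, length and GC. Deposited FPKM served for levels per length and for limma 3.58.1 on log2(FPKM + 1) or log2(FPKM + 0.1).

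The alternatives were other scalings and filters, LARP6 left out, DESeq2 1.42.0, limma-voom, a replicate block, GC and length offsets (mgcv 1.9.3), an adjusted p below 0.01 and each library left out. The scripts were tested on simulated counts. Named genes were the members, LARP6, up to 4 called genes of each list or, in a list with no call, the 2 of smallest p, overlapping genes, and 3 genes of like pattern for each of CCN1, CCN2 and THBS1. The members and lists were chosen with earlier results of these data known.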

Additional observations from a re-analysis of the deposited data

How the results depend on the processing

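CCN2 was higher in all 21 alternatives and was called in 14 of them. Scaling by library size only gave 4 called members and 8 called pathway genes, beside 4.23% of all genes called higher and 1.87% lower. The 3 fits on FPKM gave 0 called members, 0 pathway genes and 0 MRTF and SRF genes, and an adjusted p below 0.01 gave 0 members and 1 pathway gene. Over all genes the 979 calls became 588 with GC and length offsets, 611 with DESeq2, 105, 108 and 3 in the fits on FPKM, 443 at the stricter threshold, and 456 to 1040 with 1 library left out. With GC and length offsets 3 MRTF and SRF genes were called, with or without the block. With 1 library left out, the calls ran from 0 to 2 members, 2 to 5 pathway genes and 2 to 5 MRTF and SRF genes. Leaving out control library 1 gave 0 member calls, as did leaving out LARP6 library 1 or 2.

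A replicate block gave 3 called members (CCN2, TEAD1 and THBS1) and 8 pathway genes, beside 1345 of all 16226 genes tested (518 higher and 827 lower). Deviations from the group mean correlated at 0.0350, 0.00727 and 0.0496 for libraries sharing the numbers 1, 2 and 3. Those numbered 1 and 3 correlated best with their own number, and those numbered 2 did not. These values do not settle whether the numbers pair the libraries.

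Log2 fold changes that changed sign were small and never called. With library size only they were 0.0033 for CCN1, 0.0037 for AMOTL2, 0.0025 for LATS2 and 0.0155 for TUBA1B. On FPKM they were 0.0022 in all 3 fits for CCN1, 0.0017, 0.0019 and 0.0017 for AMOTL2, and 0.0141 in all 3 for TUBA1B. Without a filter AJUBA was at -5.09e-05. With GC and length offsets, without and with the block, YAP1 was at -0.0345 and -0.0345, PFDN6 at 0.0302 and 0.0303, TUBA1B at 0.0151 and 0.0150, and RBM12 at -0.0034 and -0.0035. With 1 library left out the values ran from -0.0441 to 0.00615 for CCN1, -0.0321 to 0.0327 for AJUBA, -0.0551 to 0.0153 for LATS2, -0.0509 to 0.00149 for PFDN6 and -0.0356 to 0.0161 for TUBA1B.
The cause of these changes was not tested. LATS2, with the fewest reads, had the widest interval of the members.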
